A study of Saccharomyces cerevisiae with 2 samples.

Results

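The proteins of the large (60S) subunit of the cytosolic ribosome that carry the numbers RPL1 to RPL34 were followed in the budding yeast Saccharomyces cerevisiae under cell wall stress. The set was defined by name and holds 60 genes in 34 families, 26 of them with an A and a B copy and 8 with a single gene, out of 6207 features on the array. The table held a row for 58 of the 60. RPL22B and RPL29 had none, so RPL22A stands without its copy and RPL29 is not analysed here. All 58 had a value on both arrays, 96.7% of the set, while 44.1% of all features did.

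The cells were a mid2 mutant in the BY4741 background, a haploid strain of mating type a, and both RNAs on an array came from this mutant. Mid2 sits in the plasma membrane and reports damage of the wall to the cell wall integrity pathway. Congo Red attaches to the chitin and glucan of the wall and hinders its assembly. A culture grown in rich medium at 24 °C was divided, one part received 30 µg/ml Congo Red, and cells were collected at 4 h. RNA of the treated and the untreated part was hybridised together on 2 arrays, with treated RNA in Cy3 on array 1 and in Cy5 on array 2. The labels do not state the kind of mutation, the probe type and whether the arrays hold 1 culture or 2, so the spread between the arrays may be technical. No wild type was analysed here, so no part of the values can be ascribed to the mutation.

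A yeast ribosome is built from equal numbers of its proteins, and the genes for them are among the most strongly transcribed in growing cells. Their transcription is driven by Rap1, Fhl1, Ifh1 and Sfp1, follows nutrient signals through the TOR and protein kinase A pathways, and is shut down in many acute stresses. Most of these genes were kept as pairs after an ancient duplication of the genome, and the A and B copies encode identical or nearly identical proteins. A feature of one copy can therefore take up cDNA of the other, which was not tested here.

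Values are log2 ratios of the 2 channels as deposited, so 0 means equal signals and 1 or −1 a 2-fold difference. Neither the labels nor the table settles their direction. The arrays correlated positively over the 2738 features with both values (Pearson r = 0.48, Spearman rho = 0.34, across genes, which are not independent replicates) although the dyes were swapped. Both arrays are therefore read as turned the same way, which is not settled. A positive ratio is read as more signal with Congo Red. That is an assumption, because the correlation would be the same with untreated over treated on both arrays, where every sign would be reversed. The ratios were not centred: the overall median, taken over these 2738 features, was −0.27 on array 1, −0.18 on array 2 and −0.24 for the mean ratio. Of the genes altered in the strain, MID2, MET17 and URA3 had no value. HIS3 gave −0.37 on array 1 and −0.16 on array 2, and LEU2 −0.25 and 0.060, although BY4741 lacks them in whole or part, so a value does not show that a transcript was present. Of the mating type markers 4 of 6 a-cell genes and 1 of 4 alpha-cell genes had values on both arrays, and a ratio between 2 RNAs of the same strain checks neither genotype nor mating type. A ratio compares shares of the labelled RNA, so less transcript per cell and fewer transcribing cells cannot be told apart.

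No gene of RPL1 to RPL34 passed the test across all features. Their mean log2 ratios ran from −0.44 for RPL30 to 1.11 for RPL3, with 17 positive and 41 negative, a median of −0.15 and a median SD between the arrays of 0.27 (n = 2 for each gene). Of all 2738 features 743 had a positive mean and 1995 a negative one, a similar split. With each array centred on its overall median, 42 of the 58 were positive and 16 negative. Such centring leaves 1369 of the 2738 features above 0 on each array, and the split of their means is not at hand. The median lay 0.093 above that of all features. Limma called 0 of the 58 at a Benjamini-Hochberg adjusted p under 0.05, where it called 0% of all features, and 0 at an unadjusted p under 0.05, where 13.6% of all features passed. The smallest adjusted p among them was 0.366. A rule of size asked for 2-fold or more in the mean and for 1.5-fold or more, in the same direction, on array 1 and on array 2. It took 0 members on the positive side, against 4.13% of all features, and 0 on the negative side, against 2.81%. A limit of 1.5-fold in the mean, positive on both arrays, took 4 members, RPL3, RPL4B, RPL15A and RPL15B, against 8.4% of all features, and its negative counterpart took 0 against 15.9%. On array 1 alone 2 members, RPL3 and RPL7A, were at least 2-fold positive, against 8.04% of all features, and 0 were 2-fold negative, against 13%. On array 2 alone 0 were 2-fold in either direction, against 3.91% positive and 1.75% negative among all features.

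The arrays placed the set differently. On array 1 the lowest value was −0.38, the median −0.043 and the highest 1.83, and 56 of 58 genes lay above the overall median. On array 2 the lowest was −0.75, the median −0.24 and the highest 0.81, and 24 of 58 lay above it. The set was thus 0.22 above the overall median on array 1 and at −0.058 relative to it on array 2. With the median taken over every feature measured on the array, the counts above were 56 and 27.

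**Figure D1:**
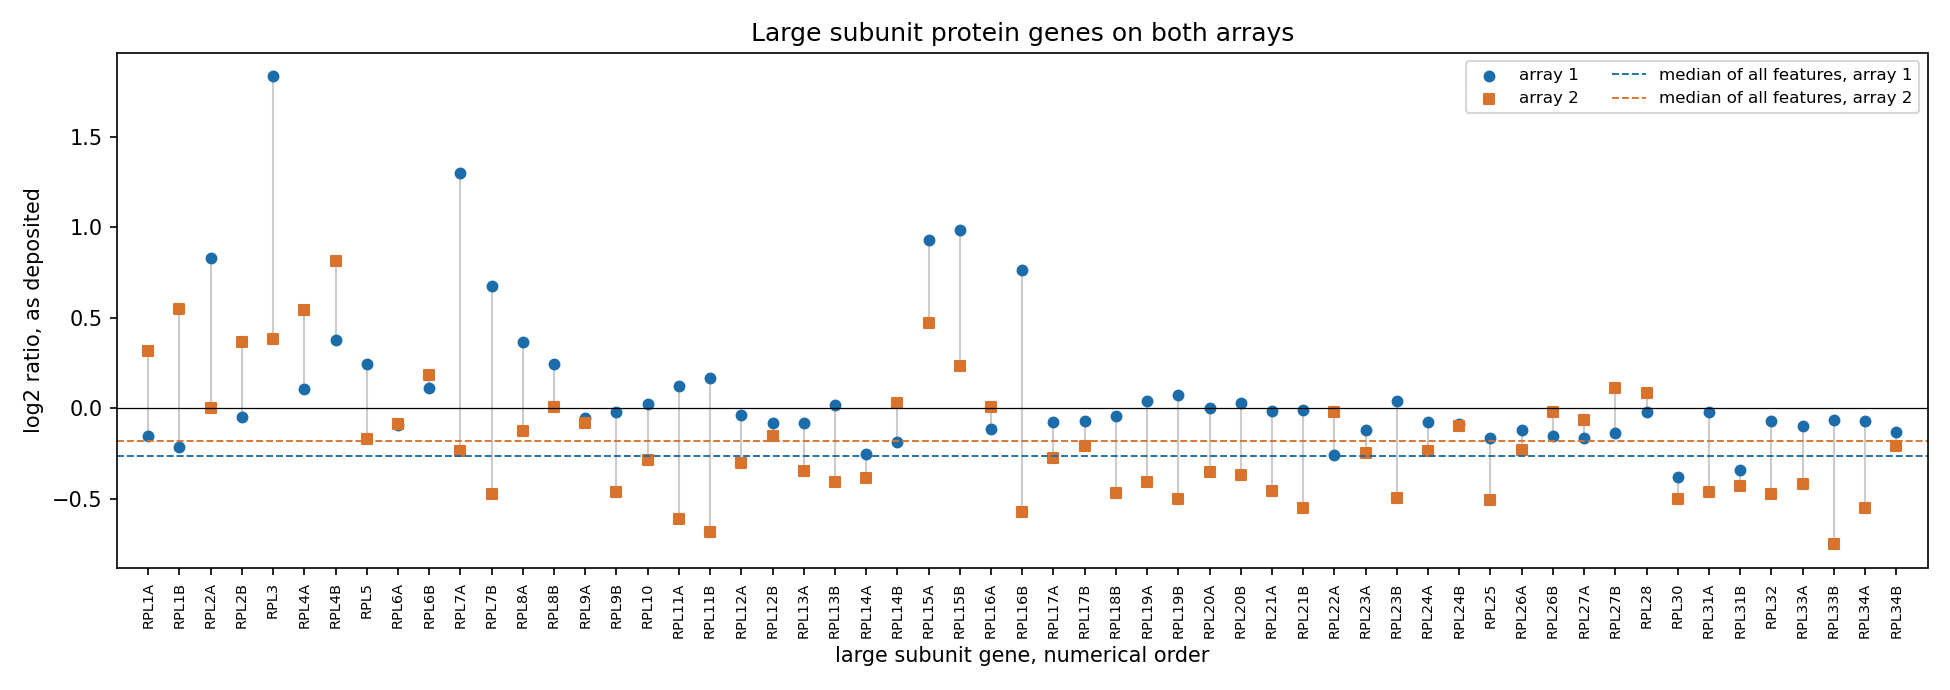
Log2 ratio as deposited (vertical axis) of the measured large subunit genes described here, in numerical order, with a circle for array 1, a square for array 2 and a grey line between them. Dashed lines give the overall medians, −0.27 and −0.18. RPL3 at 1.83 and RPL7A at 1.30 on array 1 stand highest, and for most genes array 1 lies above array 2.

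Only 2 genes, RPL30 and RPL31B, lay below the overall median on both arrays, 3.45% of the set against 29.3% of all features. Above it on both arrays lay 24, or 41.4%, against 29.3%. Since 56 of 58 lay above that median on array 1, at most 2 could lie below it on both. The 24 are all the members above it on array 2. Above it on array 1 and below it on array 2 lay 32, or 55.2%, against 20.7%, and the opposite order was met by 0 members against 20.7%. Between the quartiles of all features on both arrays lay 23, or 39.7%, against 28.5%. The order of features within an array does not depend on centring or scaling, so these positions do not either. They do depend on the direction in which array 1 is read. As deposited, array 1 gave the higher ratio for 44 of the 58, or 75.9%, where it did so for 41.6% of all features.

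The members were packed tightly on array 1. Between their quartiles lay 0.21 log2 units on array 1, against 0.74 for all features, and 0.46 on array 2, against 0.50. On array 1, 42 of 58 were within 0.2 of 0, or 72.4%, against 23.5% of all features, and on array 2 it was 16, where 32.2% of all features were. The values of the arrays correlated weakly across the members (Pearson r = 0.26, Spearman rho = −0.0027, n = 58, a description across genes that share both arrays). A gene's place within the set on one array thus said little about its place on the other, apart from a few genes such as RPL3, RPL15A and RPL15B. RPL7A, RPL7B and RPL16B were high on array 1 alone. RPL2A, also high on array 1, gave −0.0013 on array 2, just above the upper quartile of the set there, −0.0058.

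**Figure D2:**
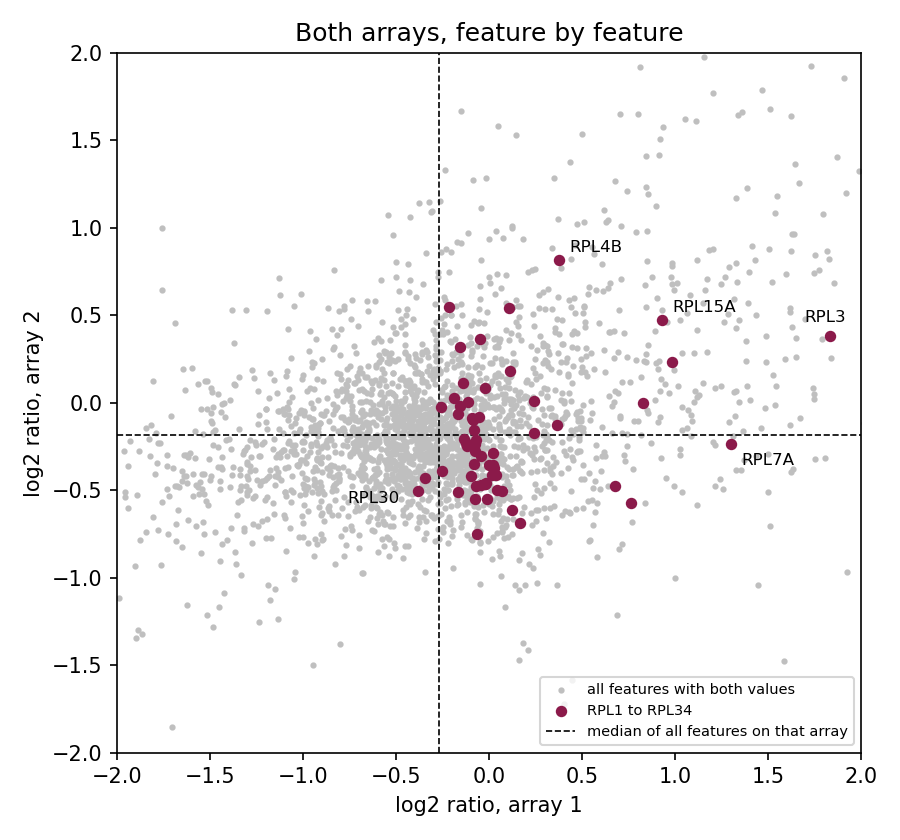
Log2 ratio on array 1 (horizontal) against array 2 (vertical) for all 2738 features with both values (grey) and the 58 large subunit genes (dark red), with dashed lines at the overall medians. The axes stop at −2 and 2 and leave out 160 features, none of them a large subunit gene. The genes form a narrow upright band near 0 on array 1 that spreads downward on array 2, with RPL3, RPL7A and RPL15A to its right.

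The genes for proteins around the active centre included RPL3, the highest member by mean ratio, while RPL10 lay near the middle of the set. RPL3 (YOR063W), whose protein reaches the peptidyl transferase centre, gave 1.83 on array 1 and 0.38 on array 2, a mean of 1.11 ± 1.03 (SD, n = 2) with an adjusted p of 0.366 in limma. Both values were positive, but array 2 stayed under 1.5-fold, which kept RPL3 outside the rule of size although its mean was the only one past 2-fold. RPL4A (YBR031W) and RPL4B (YDR012W), whose protein lines the exit tunnel, gave 0.11 and 0.37 on array 1 and 0.54 and 0.81 on array 2. All 4 values were positive, and here array 2 was the higher one. Their means were 0.32 ± 0.31 and 0.59 ± 0.31 (SD, n = 2).

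RPL2A (YFR031C-A) and RPL2B (YIL018W) encode a protein next to the peptidyl transferase centre. RPL2A gave 0.83 on array 1 and −0.0013 on array 2, and RPL2B −0.051 and 0.37, so the higher copy differed between the arrays. RPL10 (YLR075W), whose protein joins the subunit late, in the cytoplasm, and touches the tRNA in the A site, gave 0.022 and −0.29 and had the lowest mean of this group, −0.13 ± 0.22 (SD, n = 2). Of the 6 genes of RPL2, RPL3, RPL4 and RPL10, 5 lay above the overall median on both arrays, the exception being RPL10. So did 41.4% of the set and 29.3% of all features. The place was not particular to this group: of the 14 genes of RPL1 to RPL8, which include RPL2, RPL3 and RPL4, 12 lay there. The median of the 6 genes was 0.51 above that of all features on array 1 and 0.56 above it on array 2.

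The 5S ribonucleoprotein and the mobile edges of the subunit gave other pictures. RPL5 and RPL11 encode the proteins that carry the 5S rRNA into the central protuberance. RPL5 gave 0.24 on array 1 and −0.17 on array 2. RPL11A gave 0.12 and −0.61, and RPL11B 0.17 and −0.69. All 3 genes were positive on array 1 and negative on array 2, and the copies of RPL11 were among the 3 lowest members on array 2, beside RPL33B.

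RPL1A and RPL1B, for the protein of the L1 stalk where the used tRNA leaves, went the other way, with −0.16 and −0.22 on array 1 against 0.32 and 0.55 on array 2. RPL1B was the highest member on array 2 after RPL4B. RPL12A and RPL12B, for the base of the stalk that binds translation factors, gave −0.041 and −0.079 on array 1 and −0.30 and −0.16 on array 2. All 4 of these were negative and small.

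The genes for proteins around the mouth of the exit tunnel lay close to or below 0. The 9 genes of RPL17, RPL19, RPL25, RPL26 and RPL31 ran from −0.34 to 0.072 on array 1 and from −0.51 to −0.019 on array 2, all 9 negative on array 2 and in the mean. On array 2, 44 of the 58 members, or 75.9%, and 68.7% of all features were negative too. Above the overall median lay 8 of the 9 on array 1, 1 on array 2 and 6 in the mean. Among the 58 members it was 56, 24 and 44. RPL25 (YOL127W), the docking site of the signal recognition particle, gave −0.17 and −0.51, a mean of −0.34 ± 0.24 (SD, n = 2). RPL31B gave −0.34 and −0.43, a mean of −0.39 ± 0.06 (SD, n = 2), while RPL31A gave −0.023 and −0.46. The copies of RPL31 were thus apart on array 1 and together on array 2. RPL17A, RPL17B, RPL19A, RPL19B, RPL26A and RPL26B had means between −0.22 and −0.088.

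Among the remaining universal families, those with a counterpart in bacteria, RPL7 and RPL16 had the widest gaps between arrays. RPL7A (YGL076C) gave 1.30 on array 1 and −0.23 on array 2, and RPL7B (YPL198W) 0.68 and −0.47. Both copies were high on array 1 and below the overall median on array 2, so the SD of RPL7A, 1.09, was the widest in the set. RPL16B gave 0.76 and −0.57 while RPL16A gave −0.11 and 0.0068. RPL9A gave −0.054 and −0.081, RPL9B −0.022 and −0.46. RPL23A and RPL23B, for a protein of the face that meets the small subunit, had means of −0.18 ± 0.089 and −0.23 ± 0.38 (SD, n = 2). RPL28 (YGL103W), the gene in which resistance to cycloheximide was mapped, gave −0.022 and 0.084 and a mean of 0.031 ± 0.075 (SD, n = 2), close to 0 on both arrays.

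Of the families without a bacterial counterpart, RPL15 stood apart. RPL15A (YLR029C) gave 0.93 on array 1 and 0.47 on array 2, and RPL15B (YMR121C) 0.98 and 0.24. All 4 values were positive, and the means of 0.70 ± 0.32 and 0.61 ± 0.53 (SD, n = 2) were the highest of the set after RPL3. RPL6B gave 0.11 and 0.18 and RPL6A −0.092 and −0.089, the latter with the smallest SD between arrays, 0.002. RPL8A gave 0.37 and −0.13 and RPL8B 0.24 and 0.0078, so both were higher on array 1 than on array 2.

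The lowest means also lay among these families. RPL30 (YGL030W), whose protein binds its own transcript and holds back its splicing, gave −0.38 on array 1 and −0.50 on array 2, a mean of −0.44 ± 0.086 (SD, n = 2) with an adjusted p of 0.466 in limma. It was the lowest member on array 1. RPL33B gave −0.065 and −0.75, the lowest value of array 2, and RPL33A −0.097 and −0.42. RPL34A gave −0.073 and −0.55 and RPL34B −0.13 and −0.21. RPL14A gave −0.25 and −0.39, while RPL14B gave −0.19 and 0.028. RPL32 gave −0.07 and −0.48, and its mean of −0.27 ± 0.29 (SD, n = 2) was close to the overall median.

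The copies of RPL13, RPL20 and RPL21 had nearly the same pattern, close to 0 on array 1 and between −0.55 and −0.35 on array 2. Their means ran from −0.28 for RPL21B to −0.17 for RPL20B. RPL22A, for a protein yeast can live without, gave −0.26 and −0.022, the reverse order. RPL24A gave −0.074 and −0.24 and RPL24B −0.085 and −0.099. RPL24 protein, which is also dispensable, joins in the cytoplasm. RPL27A and RPL27B had means of −0.12 ± 0.070 and −0.014 ± 0.18 (SD, n = 2).

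The A and B copies resembled each other more than the families did. In the 25 pairs with all 4 values the copies correlated on array 1 (r = 0.63, Spearman rho = 0.57) and on array 2 (r = 0.77, Spearman rho = 0.62), as a description over pairs that share an array and, in part, sequence. On array 1 the SD within a pair was 0.21 and that between the means of pairs 0.31. On array 2 they were 0.18 and 0.32. In the mean of the arrays the copies were apart by a median of 0.088 log2 units, 14 pairs by under 0.1 and 20 by under 0.2. In 18 of the 25 pairs the differences on the arrays had opposite signs and partly cancelled in this mean. On single arrays the median absolute difference was 0.059 on array 1 and 0.21 on array 2. No pair (0 of 25) was apart by the rule of size applied to A minus B.

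The widest pair was RPL7, with A above B by 0.62 on array 1 and 0.24 on array 2, a mean difference of 0.43 ± 0.27 (SD, n = 2). RPL4 followed, with B above A by the same amount on each array (A minus B of −0.27 and −0.27, SD 0.0019). RPL6 differed likewise, by −0.21 and −0.27. These 3 pairs had the same direction on both arrays, as had RPL14 (−0.065 and −0.42), RPL17 and RPL27 among others. RPL2, next in size to RPL4, had not: A minus B was 0.88 on array 1 and −0.37 on array 2. RPL16 gave −0.88 and 0.58, which cancelled to −0.15 in the mean, and RPL9 gave −0.032 and 0.38. The closest pairs in the mean were RPL20 (−0.004), RPL8 (−0.0043), RPL11 (0.014) and RPL13 (−0.018). RPL8 was close only because 0.13 on array 1 and −0.13 on array 2 cancelled.

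As deposited, A minus B had the same sign on both arrays in 7 of 25 pairs, 2 with A higher and 5 with B higher, and opposite signs in 18. With ratios that were never turned, a reading taken up at the end, it is the 18 pairs that would repeat their difference and the 7 that would not. Over the pairs the difference on array 1 and that on array 2 gave r = −0.36 and Spearman rho = −0.21, a description with n = 25. The value of r depended on single wide pairs. Without RPL2 and RPL16, the widest pairs on array 1, an alternative chosen after seeing the data, r was 0.18 over 23 pairs (Spearman rho = −0.0089). Without RPL7 and RPL4, the 2 widest pairs in the mean, r was −0.57. In the small subunit, 15 of 21 pairs had opposite signs and the median difference between copies was 0.090. There r was 0.15 and Spearman rho −0.39. Without RPS0 and RPS21, r was −0.66 over 19 pairs (Spearman rho = −0.62). Differences of single pairs were not tested; an exact sign permutation test with 2 arrays cannot go below p = 0.5. As groups, the 26 A copies and the 25 B copies had medians of −0.17 and −0.12 in the mean of the arrays.

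**Figure D3:**
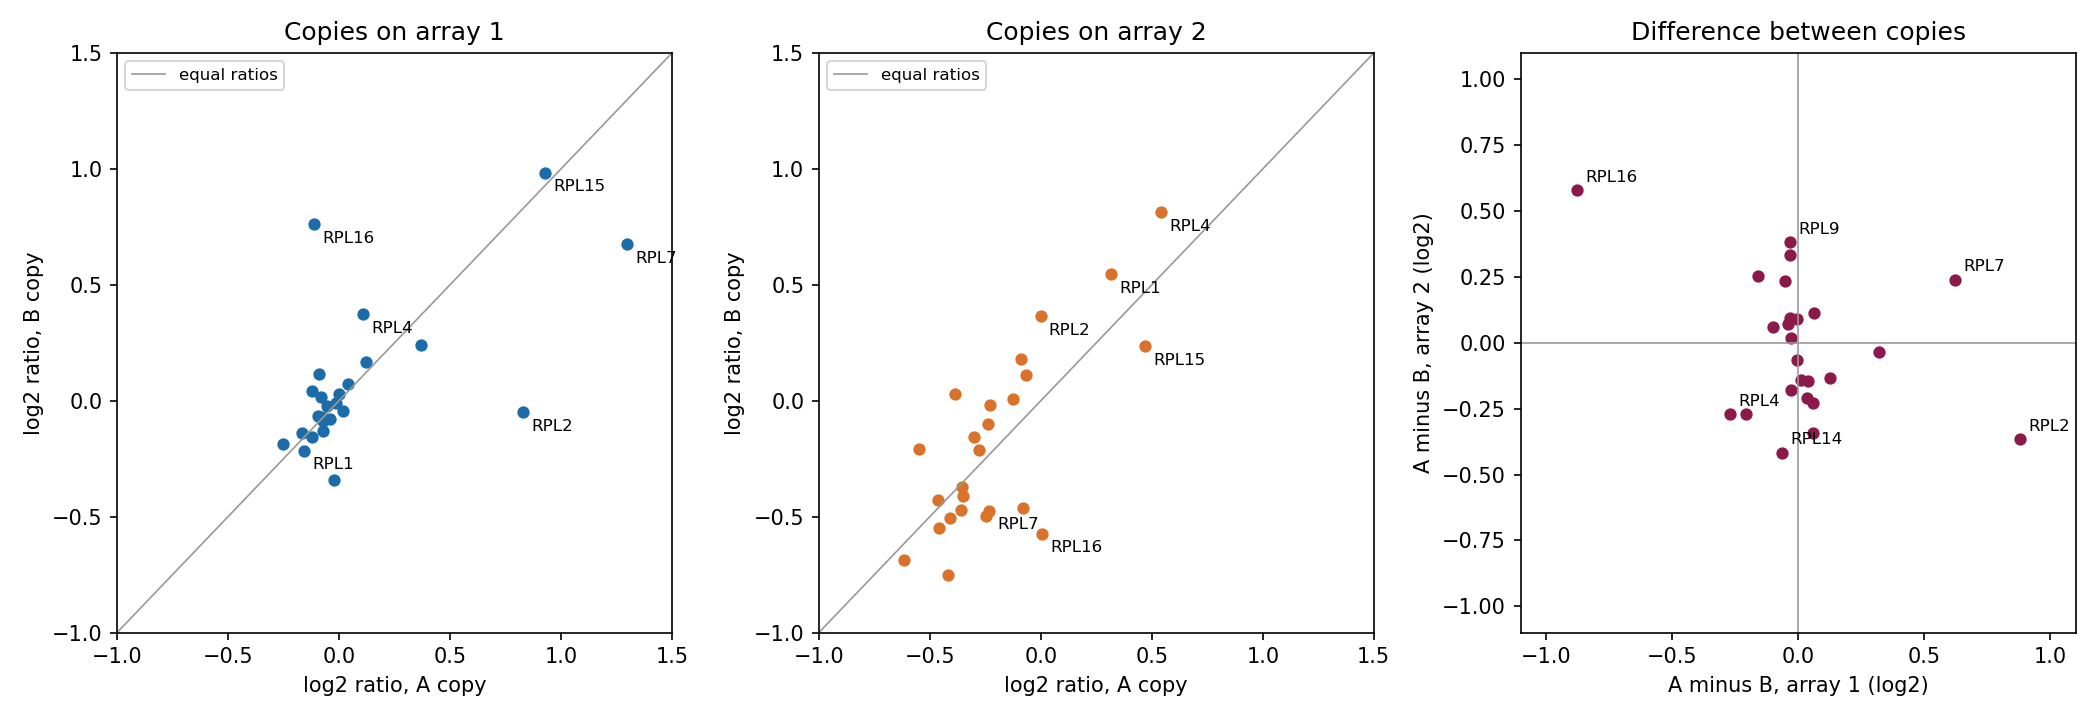
Left and middle, log2 ratio of the A copy (horizontal) against the B copy (vertical) for 25 pairs on array 1 and on array 2, with a grey line where they are equal. Right, A minus B on array 1 (horizontal) against array 2 (vertical). RPL2 and RPL16 leave the line on array 1, and the right panel holds 18 pairs in the quadrants of opposite sign and 7 in those of equal sign.

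Along the numerical order the low numbers stood higher in the ratios as deposited. The numbering goes back to the migration of the proteins on gels, so low numbers tend to be larger proteins. Split after the values were seen, the 14 genes of RPL1 to RPL8 had a median of 0.15 in the mean of the arrays, 13 of them positive, and the 44 measured genes of RPL9 to RPL34 a median of −0.18, with 4 positive. On array 1 the medians were 0.24 and −0.068, and on array 2 they were 0.094 and −0.36. Over the 58 genes the RPL number correlated with the ratio on array 1 (Spearman rho = −0.47) and on array 2 (−0.45), and with the mean (−0.63). With ratios read as never turned it did not (−0.011), and RPL1 to RPL8 then spread from −0.77 for RPL7A to 0.38 for RPL1B, with a median of −0.058 against −0.16 for RPL9 to RPL34. Outside RPL1 to RPL8 and RPL15, 42 genes remained, whose values on array 2 ran from −0.75 to 0.11 and whose means were positive in 2 cases, RPL28 and RPL16B.

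Gene length, introns included, gave a weaker relation. Its Spearman rho with the ratio was 0.34 on array 1 and 0.086 on array 2 over the 58 members, and 0.14 and 0.25 over the 2600 features with both values and a known length. The part of length in the order of the members was not tested. Signal strength was not at hand, and its part was not tested either.

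By the evolutionary reach of the families, the 27 genes of universal families had a median of −0.022 on array 1 and −0.21 on array 2, and the 31 measured genes of the other families −0.065 and −0.36. Above the overall median on both arrays lay 13 of the 27 and 11 of the 31. The quartiles of these groups overlapped on both arrays, and the difference was not tested, since the genes are not replicates. The 7 measured single-copy genes had a median of −0.13 in the mean of the arrays and the 51 genes of families with copies −0.16.

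Of the other ribosomal lists, RPL35A to RPL43B and the small subunit lay higher on array 1 than on array 2, relative to the overall median, while the stalk lay above that median on both. The 13 measured genes of RPL35A to RPL43B had medians of −0.067 on array 1 and −0.38 on array 2, with 12 above the overall median on array 1 and 1 on array 2. RPL39, a small protein of the tunnel wall, was widest apart at 0.45 and −1.59. It and RPL41A, at 0.067 and −0.99, had the lowest means of this list, and RPL42B, at −0.21 and −0.021, and RPL37B, at −0.094 and −0.24, the highest. The 53 measured small subunit genes had medians of −0.060 and −0.35, with 50 and 14 above that of all features. RPS0A, at 3.50 and 0.32, exceeded RPL3 on array 1, its copy RPS0B gave 1.09 and −0.11, and RPS10A and RPS10B gave −1.37 and −1.17 on array 2, lower than any gene of RPL1 to RPL34. The 5 stalk genes, which bind the translation factors, had medians of 0.028 and −0.071, and 4 of them lay above the overall median on both arrays, the exception being RPP1B at −0.079 and −0.29. RPP0 gave 0.028 and 0.033, RPP2B 0.11 and −0.071, and RPP1A −0.12 and 0.057. Limma called 0 genes of these lists at an adjusted p under 0.05 and 0 at an unadjusted p under 0.05, and 0 passed the rule of size.

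**Figure D4:**
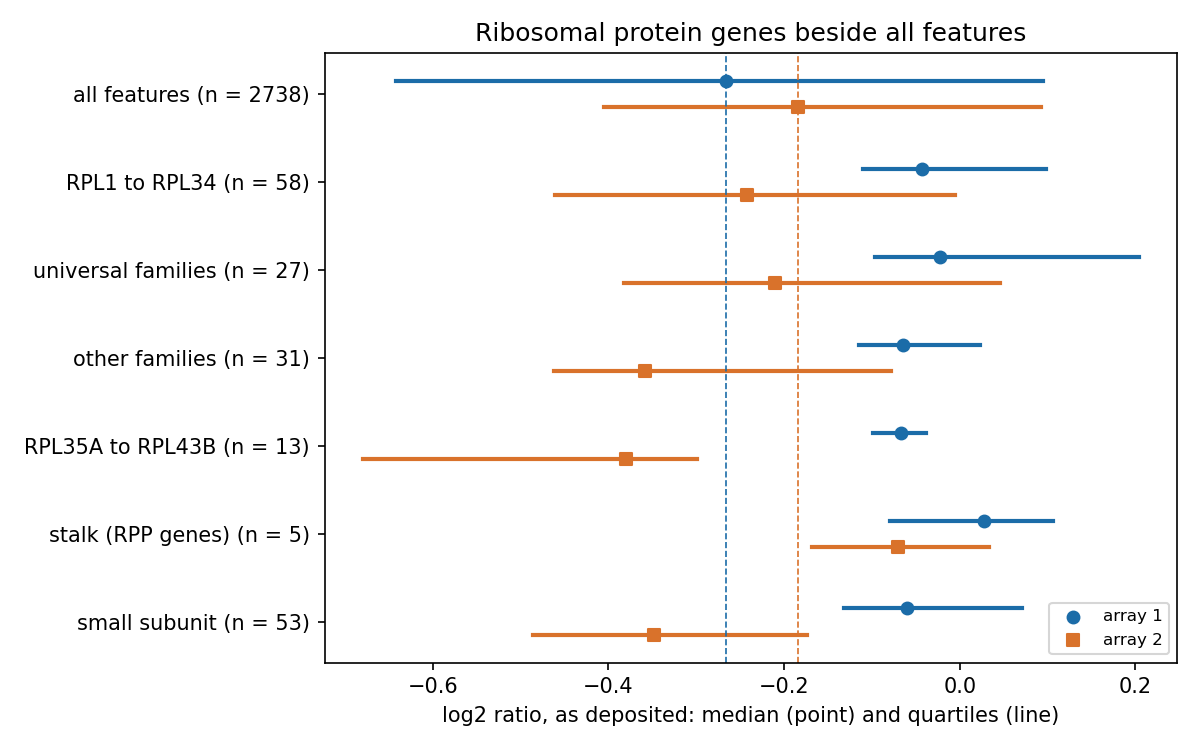
Median (point) and quartiles (line) of the log2 ratio on array 1 (circle) and array 2 (square) for all features, the large subunit genes and their universal and other families, and the remaining ribosomal protein genes. Dashed lines mark the overall medians. The ribosomal lists lie to the right of the dashed line on array 1, and all of them but the stalk lie to the left of it on array 2.

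The genes that control or assemble the large subunit were measured less completely. Of 10 regulators 3 had values on both arrays: FHL1, which binds ribosomal protein promoters, gave −1.70 and −1.85 and passed the rule of size on the negative side, CRF1, a corepressor described at these promoters, gave −1.79 and −0.17, and TOR1 gave −0.80 and 0.42. Of 27 assembly and export factors 15 had values on both arrays, with medians of 0.39 on array 1 and 0.037 on array 2, and 6 of the 15 lay above the overall median on both. NOG1, a GTPase of early assembly, gave 1.60 and 0.74 and passed the rule of size, and NUG1, another GTPase of assembly, gave 1.38 and 0.35. LSG1, a GTPase of the last cytoplasmic steps, gave −3.15 and 0.072, and SYO1, which brings RPL5 and RPL11 proteins into the nucleus, −0.66 and −0.17. SQT1, the chaperone of RPL10 protein, gave 0.65 and 0.039, and RRB1, that of RPL3 protein, had a value on array 2 alone, 0.071. Limma called 0 of these genes at an adjusted p under 0.05, and 1 regulator and 1 assembly factor at an unadjusted p under 0.05.

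If the ratios had never been turned and both were Cy5 over Cy3, the treatment would lie in the difference between the arrays. In that reading 44 of the 58 genes, or 75.9%, were negative, against 41.6% of all features. These are the 44 with the higher deposited ratio on array 1. Below the overall median lay 48 of the 58, and the median of the set was −0.14, or −0.20 relative to all features. Values ran from −0.77 to 0.38. Limma then called 0 members and 3 features in all at an adjusted p under 0.05. At an unadjusted p under 0.05 it called 0 members, and the share of all features there is not at hand. RPL7A, RPL3 and RPL16B, high on array 1, became the lowest, and RPL1B, RPL1A, RPL4A, RPL4B and RPL2B the highest. The sign differed between the readings for 17 of the 58 genes.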

How the data were processed

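Two-channel arrays of 2 samples of the mid2 mutant were analysed, and per the labels' protocols total RNA was labelled with Cy5 or Cy3 by reverse transcription. The authors deposited 1 log2 ratio per feature and array; the base was read from the values, since all 2832 values of array 1 and all 3440 of array 2 turn into linear ratios of 4 decimals (relative tolerance 3e-09). Background correction, normalization, channel order and the filter behind empty cells were given by no header or label. Without intensities, signal over background is unknown, and the number of arrays limits the precision.

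The members and the lists were chosen with earlier results of these data known. Symbols and gene lengths came from the R64 gene table through the locus tags, which 5654 of 6207 features matched. The 2 control features were left out. Ratios of the 2738 features with both values were fitted against 0 with limma 3.58.1 (lmFit, eBayes; R 4.3.3), as a two-sided test with p-values adjusted over all of them (Benjamini-Hochberg), and the script was tested on simulated data. A member that enters the counts is not reported here by name. List medians and differences between copies have no test. Named genes were the 6 highest and 6 lowest means, the 6 widest and 4 closest pairs, the single-copy genes and the 2 highest and 2 lowest of other lists; further members and list genes were named after their values were seen. Alternatives were centring, scaling, quantile normalization, unturned ratios, other limits, robust moderation, features with a value on either array and each array left out. Python 3.11.15 and matplotlib 3.10.9 made the figures.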

Additional observations from a re-analysis of the deposited data

How the results depend on the processing

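Limma called 0 of the 58 members under every alternative tried: centring, scaling, quantile normalization, unturned ratios, features with a value on either array, robust moderation and an adjusted p under 0.10. At an unadjusted p under 0.05 it gave RPL3 and RPL15A after quantile normalization, these and RPL4B after centring, and these 3 and RPL15B after scaling. As deposited it gave 0 members, where 13.6% of all features passed, and the share of all features in the other settings is not at hand. The rule of size took 1 positive member after scaling, RPL3, against 6.17% of all features, and 4 with the limit at 1.5-fold, against 8.4%. With array 1 left out it took 0, against 3.91%. With array 2 left out it took 2, RPL3 and RPL7A, against 8.04%. It took 0 negative members throughout. Of all features it took 1.28% after centring, 1.53% after scaling, 3.69% after quantile normalization and 0.256% with unturned ratios. The share was 15.9% with the limit at 1.5-fold, 1.75% without array 1 and 13% without array 2. The median of the set relative to all features was 0.093 as deposited, −0.20 with unturned ratios, and −0.058 without array 1 and 0.22 without array 2, so its side depends on the array. Members above the overall median on array 1 numbered 56, and 2 with unturned ratios, an alternative chosen after seeing the data. The number of pairs apart by the rule of size was 0 in each alternative, and the median difference between copies ran from 0.059 without array 2 to 0.21 without array 1. Centring changed the sign of 25 of 58 means, scaling of 21, unturned ratios of 17 and quantile normalization of 2. Treated and untreated RNA share each array, so the ratio against 0 is itself the paired comparison. With a single group no further pairing was possible. Signal strength was not at hand, so how far weak spots limit single values is unknown.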
